A study of Mus musculus with 4 samples.

Results

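The keratins described here are 10 genes of the epidermal layers, Krt5, Krt14, Krt15, Krt1, Krt10, Krt2, Krt77, Krt78, Krt79 and Krt80. They were chosen by name among the 32479 genes of the files, which hold 53 genes named Krt and a number. The choice was made with earlier results of these data known, so counts of members passing a test are descriptions. Single-cell RNA came from the back skin epidermis of 4 female C57BL/6N mice at postnatal day 19. All 4 carried floxed CerS4 (ceramide synthase 4) alleles. The 2 control mice, titled WT in the labels, had no Cre (CerS4fl/fl K14Cre-). The 2 CerS4epi-/- mice carried Cre under the keratin-14 promoter (CerS4fl/fl K14Cre+), so that the driver of the deletion is the promoter of one of the genes measured here. Carriage of the Cre and deletion of CerS4 went together in these mice and cannot be told apart, for Krt14 as for the other genes. The promoter is active in basal cells of the interfollicular epidermis and of the hair follicle, and the deletion passes on to all of their progeny. The counts show how keratin levels differ over cells ordered by marker score, which keratins share a cell, and how their levels differed between the genotypes.

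Keratins are the intermediate filament proteins of epithelial cells. Each filament is built from pairs of a type I and a type II keratin, so a cell needs partners of both kinds. In the epidermis, basal cells are known for the pair keratin 5 (type II) and keratin 14 (type I), and cells that leave the basal layer for the pair keratin 1 (type II) and keratin 10 (type I). Keratin 15 is a further type I keratin of basal cells and of the hair follicle bulge. Keratin 2 and keratin 77 are type II keratins of suprabasal cells, keratin 79 is a type II keratin of the upper follicle and the sebaceous duct, and keratin 80 is a type II keratin of differentiating epithelia.

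The 3 type I members lie on chromosome 11 and the 7 type II members on chromosome 15, all on the minus strand (GRCm39, Gencode vM39). Krt10 (chr11:99276072-99280195), Krt15 (chr11:100022584-100026775) and Krt14 (chr11:100093988-100098490) have 8 exons each in their canonical transcripts. The type II genes have 9 exons each and follow in the order Krt80 (chr15:101245325-101268043), Krt5 (chr15:101615505-101621346), Krt2 (chr15:101719124-101726605), Krt1 (chr15:101753861-101759229), Krt77 (chr15:101767166-101778245), Krt79 (chr15:101837767-101848759) and Krt78 (chr15:101854436-101862722). Krt1 and Krt77 are neighbours with 7.9 kb and no protein-coding gene between them, and so are Krt79 and Krt78 with 5.7 kb.

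The 250 bases before the annotated start are shown for the basal pair, one of whose promoters drives the Cre, and for Krt10 and one of its type II partners, Krt77, whose levels are set side by side below. The sequences are read 5′ to 3′ on the gene's strand from GRCm39. Capitals mark matches, on either strand, to 3 motifs. These are TATAA, the core letters of a TATA box, then TGANTCA, which includes AP-1 sites, and lastly GCCNNNGGC, which includes AP-2 sites. No match overlaps one of another motif. In the set shown, the capitals are a TGANTCA match in Krt14 and a TATAA match in Krt10.
Krt5: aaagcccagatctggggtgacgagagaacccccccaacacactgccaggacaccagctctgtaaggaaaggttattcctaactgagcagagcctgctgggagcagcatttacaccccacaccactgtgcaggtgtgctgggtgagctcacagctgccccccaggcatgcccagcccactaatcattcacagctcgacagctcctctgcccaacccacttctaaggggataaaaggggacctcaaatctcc
Krt14: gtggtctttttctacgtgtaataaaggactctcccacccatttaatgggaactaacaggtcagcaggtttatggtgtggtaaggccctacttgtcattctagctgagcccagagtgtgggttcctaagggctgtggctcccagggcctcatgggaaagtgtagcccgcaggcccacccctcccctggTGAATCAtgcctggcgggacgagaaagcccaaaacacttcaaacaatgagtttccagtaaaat
Krt10: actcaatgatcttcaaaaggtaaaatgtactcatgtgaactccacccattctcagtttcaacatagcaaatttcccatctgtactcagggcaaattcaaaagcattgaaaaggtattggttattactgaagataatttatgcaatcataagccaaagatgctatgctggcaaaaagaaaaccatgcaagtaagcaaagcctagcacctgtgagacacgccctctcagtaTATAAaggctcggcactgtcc
Krt77: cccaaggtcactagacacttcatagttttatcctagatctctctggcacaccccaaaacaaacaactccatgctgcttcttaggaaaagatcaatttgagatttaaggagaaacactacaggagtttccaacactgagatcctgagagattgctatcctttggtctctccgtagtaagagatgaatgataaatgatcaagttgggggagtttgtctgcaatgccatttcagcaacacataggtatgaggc
They lie at chr15:101621347-101621596 (Krt5), chr11:100098491-100098740 (Krt14), chr11:99280196-99280445 (Krt10) and chr15:101778246-101778495 (Krt77). Of 21757 protein-coding promoters of this length, 21.6% held TATAA, 6.18% TGANTCA and 13.2% GCCNNNGGC. Among the members not shown, TATAA matched before Krt15 and Krt2, TGANTCA before Krt15, and GCCNNNGGC before Krt15 and Krt80. The promoters of Krt5 and Krt77 held none of the 3 motifs.

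Between 7567 and 9086 cells per mouse were kept, 34150 in all, with at least 1200 counts of unique molecular identifiers (UMIs) and at most 20% mitochondrial counts, and their median depth was 3266.5 to 3884 counts. The median mitochondrial share was higher in the CerS4epi-/- mice (9.94% and 9.68%) than in the control mice (8.66% and 8.56%). No cell barcode was shared by the 2 control mice or by the 2 CerS4epi-/- mice, where 87.1 and 77.1 shared barcodes would be found in unrelated draws, while mice of different genotype shared 64 to 102. The mice of a genotype therefore do not look like independent draws of barcodes, and genotype and any capture or processing step shared within a genotype cannot be told apart. Cers4 itself was counted mainly in the few cells with sebaceous markers, of which it is one, at 2832 and 3968 CPM (a scale of relative counts on which 10000 CPM are 1% of all counts summed) in 12 and 2 control cells and at 293 and 433 CPM in 26 and 34 CerS4epi-/- cells. Over all cells its level was 17.4 and 3.37 CPM in the control and 4.21 and 7.73 CPM in the CerS4epi-/- mice, which overlap, and whether the counted transcript ends lie in the deleted exons is not given in the sources used here. No doublet caller was run, so cells that share keratins include any doublets.

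Cells were placed by markers that include no keratin, so that the keratins could be read out in the groups. Basal marker cells (hemidesmosome and basement membrane genes such as Col17a1 and Itga6) numbered 13228, spinous marker cells (such as Sbsn and Dsc1) 11920, granular marker cells (such as Lor and Flg2) 3565 and upper follicle marker cells (such as Defb6 and Cst6) 4279. A group is a range of a marker score and not a cell type, and 2451 cells lay within 1.25-fold of the limit between basal and spinous cells. Basal, spinous and granular cells were each divided into 3 steps of rising spinous or granular score, which gives 9 steps from basal 1 to granular 3. The steps order different cells of the same age. Words of sequence below refer to this order, and no cell was followed in time. T cells (464 cells by their own markers), which have no keratin filament program, were used to gauge background, from free RNA and any doublets together. Krt10 was at 2517 and 5094 CPM in control and 2174 and 2432 CPM in CerS4epi-/- T cells. At basal 1 it was only at 324 and 357 CPM and at 239 and 236 CPM. A level at or below that of T cells therefore does not by itself mark a gene as free RNA.

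Together the 10 keratins made up 4.28% and 4.48% of all counts in the control mice and 3.69% and 3.46% in the CerS4epi-/- mice. Levels are CPM of the counts summed over cells. They count captured transcript ends and are not divided by length, so levels of different genes are compared only as counts. Values per mouse are given in the order control replicate 1, control replicate 2, CerS4epi-/- replicate 1 and CerS4epi-/- replicate 2.

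Krt10 was the most abundant member over all cells, at 16719, 18176, 12253 and 11184 CPM. Krt77 followed, at 11460, 12457, 8556 and 8090 CPM. The ranges of these 2 genes over the mice overlapped, but Krt10 was above Krt77 in 4 of 4 mice. Krt15 came next, at 4692, 4696, 4150 and 4381 CPM, above Krt5 at 3324, 2974, 3735 and 3267 CPM. Krt1 (2357, 2527, 2788 and 2271 CPM) and Krt14 (1994, 1746, 2799 and 2585 CPM) could not be ordered, since Krt1 was higher in 2 of 4 mice. Krt80 stood at 1852, 1940, 1763 and 1827 CPM, below Krt14 in 3 of 4 mice. Krt79 was lower and differed most between the genotypes, at 332, 221, 800 and 901 CPM. Krt78 (86.4, 97.4, 65.3 and 65.9 CPM) and Krt2 (3.27, 4.32, 1.90 and 1.69 CPM) closed the order. Reads shared among several genes took part in at most 1.37% of the counts of Krt14 and 0.766% of those of Krt5.

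**Figure D1:**
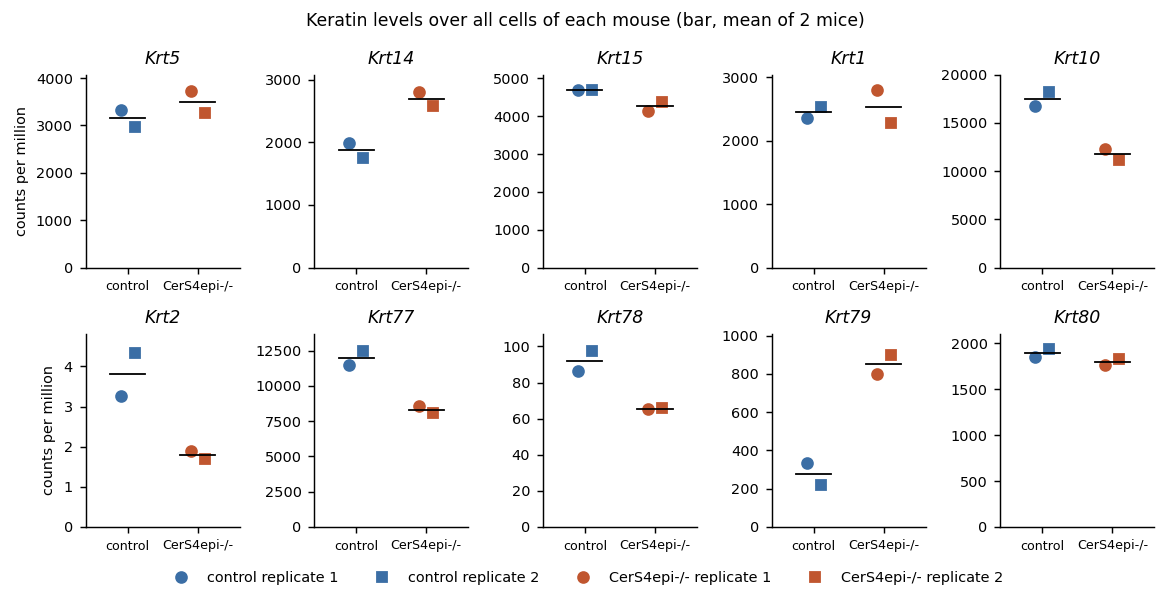
Level of each keratin over all cells of a mouse, in CPM on linear axes from 0, with 1 point per mouse and a bar at the mean of the 2 mice of a genotype. Krt10 and Krt77 sit lower in both CerS4epi-/- mice, Krt14 and Krt79 sit higher, and Krt5 and Krt1 overlap.

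The basal keratins left the profile one after another. In basal marker cells, Krt5 reached 10206, 9318, 10221 and 8681 CPM and Krt14 6446, 5933, 7520 and 6304 CPM, and both were found in nearly every cell. After thinning each cell to 1200 counts, 96.9%, 96.4%, 94.7% and 93.2% of the basal cells held Krt5 and Krt14 together. From the highest to the lowest of the 9 steps, Krt5 fell 44.5- to 97.8-fold and Krt14 46.8- to 135-fold over the 4 mice. Krt14 fell first: its counts were 0.436 to 0.505 of those of Krt5 at spinous 1, against 0.642 to 0.740 at basal 1. Krt15 stayed longer. Its level at spinous 1 (9579, 10358, 8832 and 9999 CPM) was above that at basal 1 (9259, 9232, 7560 and 7725 CPM), and at basal 3 it was at 10777, 10718, 8568 and 8770 CPM. Krt14 had already dropped to 2532, 2426, 3436 and 2686 CPM at spinous 1. At spinous 2, Krt15 outnumbered Krt14 by 13.3, 13.6, 7.77 and 11.3 to 1.

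Of the suprabasal keratins, Krt1 peaked first. Krt1 peaked at spinous 2 in 4 of 4 mice, at 6658, 6919, 8607 and 7575 CPM, and had fallen to 858, 969.9, 1526 and 1699 CPM at granular 1. Krt10 peaked at spinous 3 in both control mice (34849 and 35828 CPM) and at granular 1 in both CerS4epi-/- mice (33315 and 33954 CPM). The neighbouring steps were close, at 33252 and 35593 CPM in the control mice at granular 1 and 32066 and 32701 CPM in the CerS4epi-/- mice at spinous 3. Krt78 peaked at the same steps as Krt10, at only 209 to 236 CPM. Krt77 peaked at granular 1 in 4 of 4 mice, at 26958 to 29916 CPM. All 4 genes were low again at granular 3, where Krt10 was at 2240, 2504, 1255 and 1552 CPM. Krt80 behaved unlike the others: it rose at each step from spinous 1 to its highest level at granular 3 in 4 of 4 mice, at 8064, 8276, 8552 and 8354 CPM, which was 19.4 to 22.0 times its lowest step. At that last step Krt80 was the most abundant member. Krt2 stayed near the detection limit, with at most 6.57 CPM at any step of any mouse, and was found in 0.753% to 1.94% of the cells of a mouse. It was found in 0 of 464 T cells, which allows a share of up to 0.647%.

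**Figure D2:**
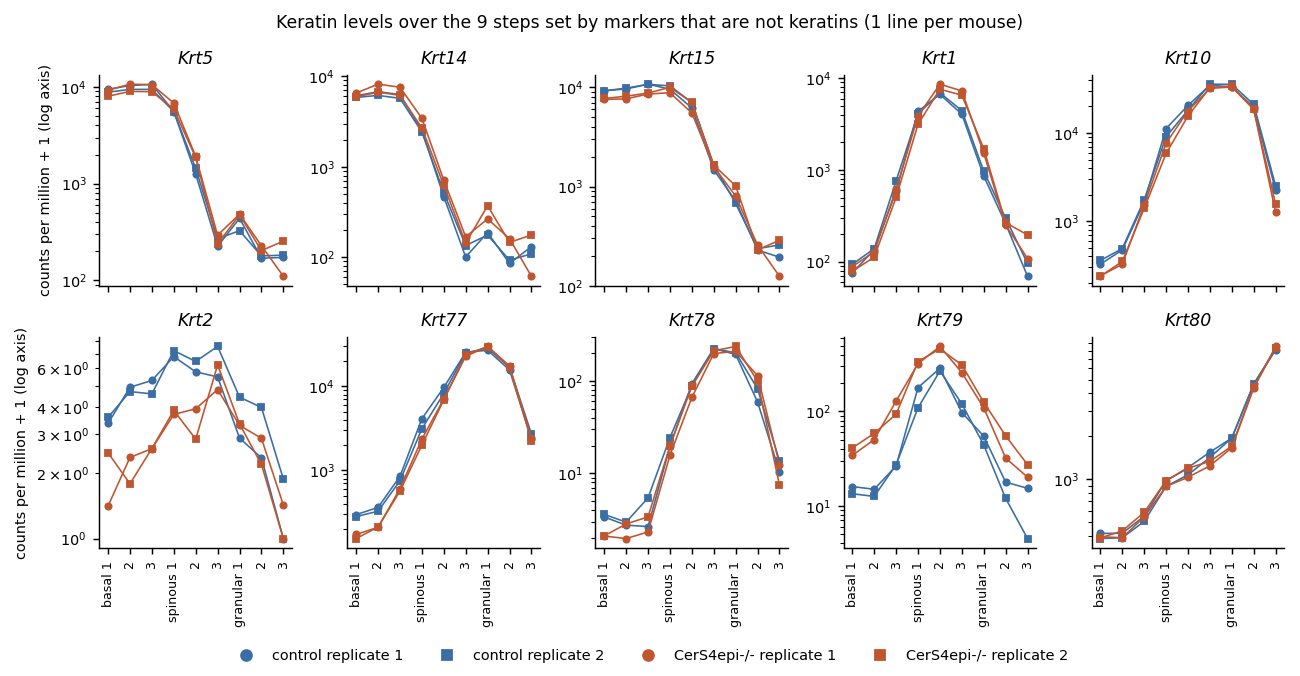
Level of each keratin at the 9 marker steps (CPM plus 1, log axis), with 1 line per mouse. Krt5 and Krt14 are highest at basal 2 or 3 and Krt15 at basal 3 or spinous 1, and they fall after that, Krt1 peaks at spinous 2, Krt10, Krt78 and Krt77 peak at spinous 3 or granular 1, and Krt80 rises to granular 3.

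The type II transcripts counted beside Krt10 changed along the way, with a rising share of Krt77. Pairing of the proteins was not measured. Of the counts of Krt1 and Krt77 together, Krt77 made up 48.7%, 43.4%, 37.9% and 38.9% at spinous 1 and 86.3%, 85.0%, 75.8% and 78.6% at spinous 3. At granular 2 it made up 98.4%, 98.3%, 98.6% and 98.5%. The ratio of Krt10 to Krt1 alone therefore ran from 2.06 to 76.1 between spinous 2 and granular 2. The ratio of Krt10 to the sum of both partners stayed between 1.18 and 1.26 in the control mice over these 4 steps and between 1.04 and 1.14 in the CerS4epi-/- mice. At granular 3, where all 3 genes were low, this ratio fell to 0.915, 0.890, 0.501 and 0.632. Both partners were found in the same cells at spinous 2. Of the spinous 2 cells with at least 2 thinned counts of Krt10, 84.2%, 85.0%, 77.5% and 76.3% held at least 2 of both Krt1 and Krt77. At granular 2, 91.1%, 92.7%, 93.7% and 92.7% of the Krt10 cells held Krt77 without Krt1. Cells with Krt10 and neither partner made up at most 3.26% from spinous 2 to granular 2.

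**Figure D3:**
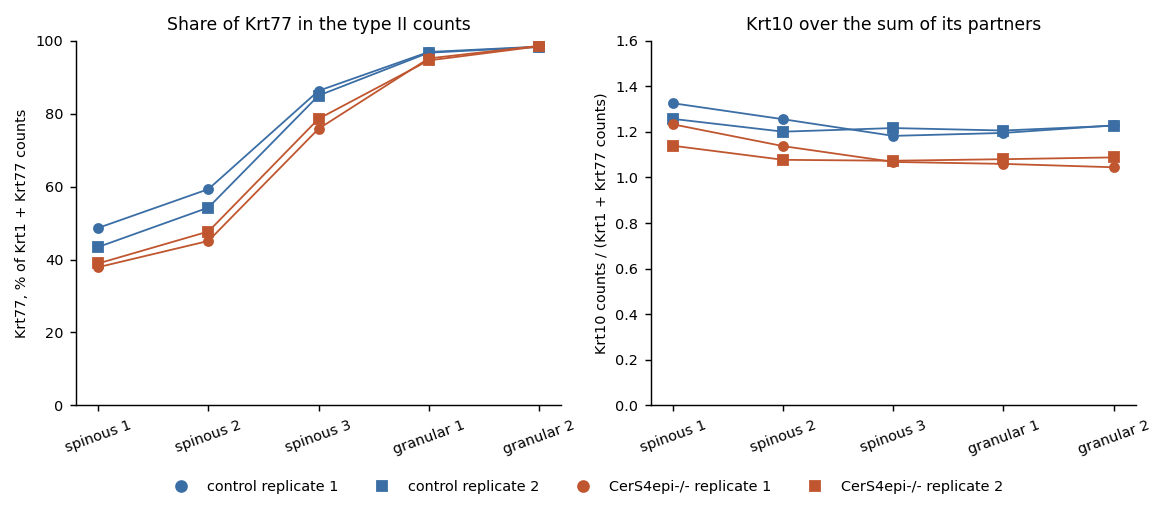
Left, Krt77 as a percent of the counts of Krt1 and Krt77 together. Right, Krt10 counts over the sum of Krt1 and Krt77 counts, both at the steps from spinous 1 to granular 2 with 1 line per mouse; the share climbs from under 50% to over 98% while the ratio on the right stays between 1.04 and 1.33, with the control lines above the CerS4epi-/- lines at each step.

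Across cells within a mouse, thinned counts of partners went together. Over the 32933 cells of the 4 groups, the Spearman correlation of Krt5 with Krt14 was 0.70 to 0.79 and that of Krt10 with Krt77 0.74 to 0.85 over the 4 mice. Krt5 and Krt10 were opposed, at -0.66 to -0.45. Within the 3561 granular cells, Krt10 and Krt77 correlated at 0.91 to 0.92 in every mouse, and Krt80 was opposed to Krt10 at -0.62 to -0.61. Within basal cells Krt14 and Krt15, both type I, were opposed at -0.26 to -0.18. Within spinous cells, Krt1 and Krt77 were nearly unrelated in the control mice (0.05 and 0.02) and went together in the CerS4epi-/- mice (0.28 and 0.31). These cells share a library, its free RNA and their depth, so the correlations are descriptions.

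The genes outside the keratin family with the profile most like each member were taken over 52 sums (13 cell groups in 4 mice), by the Pearson correlation of log2(CPM + 1). For Krt5 they were Col17a1 (0.98), Itgb4 (0.98) and Bcam (0.97), for Krt14 Etl4 (0.93), C1qtnf12 (0.92) and Csad (0.92), and for Krt15 Trp63 (0.96), Btbd11 (0.96) and Lama3 (0.95). Col17a1 and Itgb4 code for hemidesmosome proteins, Lama3 for a laminin chain and Trp63 for the transcription factor p63. For Krt1 they were Serpinb3b (0.90), Tmprss4 (0.89) and Npl (0.88), and for Krt10 Skint6 (0.95), Skint9 (0.94) and Them5 (0.92). Krt77 was most like Them5 (0.96), Skint10 (0.95) and Agpat4 (0.95), and Krt78 most like Skint6 (0.95), Skint5 (0.92) and Skint9 (0.92). Krt80 was most like Cers3 (0.97), a ceramide synthase, Casp14 (0.96), a caspase of the cornifying layers, and Pof1b (0.95). Krt79 was most like Cd200 (0.84), Slc31a1 (0.79) and Agpat3 (0.79), and Krt2 most like Calm5, Slc35d2 and Tmod4 (all 0.82). Col17a1, Itgb4, Lama3, Trp63 and Casp14 are among the markers that placed the cells.

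Between the genotypes, over all cells, 6 of the 10 keratins passed the threshold of edgeR's quasi-likelihood test (adjusted p under 0.05), 2 higher and 4 lower in CerS4epi-/- mice, where 14.3% of the 16034 genes tested passed (8.18% higher and 6.07% lower). The suprabasal keratins Krt10 (log2 fold change -0.58 ± 0.12 SE, adjusted p = 0.0291), Krt77 (-0.53 ± 0.11, 0.0291), Krt78 (-0.49 ± 0.08, 0.0134) and Krt2 (-1.08 ± 0.21, 0.0223) were lower. The follicle keratin Krt79 rose by 1.62 ± 0.18 on the log2 scale (adjusted p = 0.00524), and Krt14 by 0.52 ± 0.10 (adjusted p = 0.0199). For these 6 genes the mice of the genotypes did not overlap. Krt15 and Krt80 did not pass the test, although their mice did not overlap either, and Krt5 and Krt1 overlapped. An exact two-sided permutation test of 2 mice against 2 cannot give a p below 0.333, so the calls rest on the spread that edgeR shares across genes. Genotypes whose mice do not overlap, here and below, reach only that p. The share of all genes without overlap is not given here, so non-overlap is a description. Not all of these calls held when a mouse was left out. The log2 fold changes then ran from -0.66 to -0.50 for Krt10, -0.60 to -0.45 for Krt77 and -0.59 to -0.39 for Krt78. They ran from -1.28 to -0.86 for Krt2, 1.37 to 1.92 for Krt79 and 0.44 to 0.61 for Krt14. For the alternative fits, here and below, the share of all genes passing is not given, so a lower count is not read as particular to the keratins.

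Part of these differences went with the makeup of the samples. Upper follicle marker cells made up 9.74% and 5.78% of the control cells and 16.4% and 19.1% of the CerS4epi-/- cells, and spinous marker cells 37.6% and 41.3% against 31.2% and 28.6%. These shares depend on the marker levels, and a change in those was not told apart from a change in the number of such cells. With each mouse given the same mix of the 9 steps and the upper follicle cells, the log2 ratio of Krt10 was -0.25, of Krt77 -0.21, of Krt78 -0.11, of Krt14 0.29 and of Krt79 0.47, and the ratio of Krt1 was 0.26 where it had been 0.05. The ratio of Krt2 was -1.02. In this mix the mice of the genotypes did not overlap for Krt10, Krt77, Krt14, Krt79 and Krt2, nor for Krt1, which overlapped in the cells as sampled, while Krt78 now overlapped. The next paragraphs therefore give the differences within the marker groups. With at most 10% mitochondrial counts per cell, 3 keratins passed over all cells, and Krt10 (-0.37, adjusted p = 0.0714), Krt77 (-0.27, 0.136) and Krt78 (-0.23, 0.0866) no longer did by the edgeR test.

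In basal marker cells the keratins of the basal pair did not differ past the threshold. Krt5 had a log2 fold change of 0.00 ± 0.09 and Krt14 of 0.21 ± 0.09 (adjusted p = 0.195, edgeR), and their mice overlapped. The ratio of Krt14 to Krt5 counts did not overlap, at 0.632 and 0.637 in the control and 0.736 and 0.726 in the CerS4epi-/- mice. Krt15 was lower, at 9881, 10027, 7901 and 8189 CPM, with no overlap (log2 fold change -0.26 ± 0.06, adjusted p = 0.0340). In all, 5 of 10 members passed in basal cells, 1 higher and 4 lower, against 9.13% of all genes tested (5.59% higher and 3.54% lower). The other 4 were Krt10 (-0.37 ± 0.09), Krt77 (-0.61 ± 0.07), Krt2 (-1.56 ± 0.30) and Krt79 (1.96 ± 0.10), all at low levels in these cells. For Krt10, Krt77 and Krt79 the shares of cells after thinning overlapped those of T cells, so background was not told apart from expression. Basal cells (median depth 2636.5 to 3130.5 counts) held Krt10 in 33.7% to 46.3%, Krt77 in 24.2% to 36.5% and Krt79 in 1.85% to 6.41% of the cells. T cells (median depth 1549 to 1905 counts) held Krt10 in 27.5% to 53.2%, Krt77 in 27.8% to 45.6% and Krt79 in 4.35% to 7.64%. The call of Krt2 was not made by DESeq2 (adjusted p = 0.114) and held in 0 of 4 edgeR fits that left out a mouse. Other gene lists also differed in basal cells. The share of all genes higher or lower in both CerS4epi-/- mice is not given here, so the counts of list genes in this and later groups are descriptions. Upper follicle markers summed to 450, 380, 769 and 962 CPM (11 of 12 higher in both CerS4epi-/- mice) and bulge markers to 361, 262, 627 and 605 CPM (7 of 10 higher and 1 lower). Cycling genes were lower (5 of 5), and 4 of 6 genes of the dissociation response (Fos, Jun, Junb, Hspa1a, Hspa1b and Atf3) higher. Their part in the keratin differences was not tested. Not all of the 5 calls in basal cells held when a mouse was left out. The log2 fold changes then ran from -0.28 to -0.23 for Krt15, -0.47 to -0.25 for Krt10 and -0.67 to -0.55 for Krt77. They ran from -1.62 to -1.49 for Krt2 and 1.89 to 2.03 for Krt79. With at most 10% mitochondrial counts 3 keratins passed.

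In spinous marker cells 8 of the 10 keratins passed, 4 higher and 4 lower, against 11.3% of all genes tested (5.94% higher and 5.35% lower). The basal keratins were higher in the CerS4epi-/- mice over the group. Krt5 stood at 1395, 1503, 2245 and 2075 CPM (log2 fold change 0.57 ± 0.07, adjusted p = 0.00113) and Krt14 at 596, 628.5, 1036 and 873.8 CPM (0.63 ± 0.09, 0.00165). Krt1 was higher too, at 5035, 5191, 7144 and 6193 CPM (0.37 ± 0.08, 0.0176, edgeR). The later keratins were lower: Krt10 at 26143, 25715, 21359 and 20407 CPM (-0.32 ± 0.07, 0.0178) and Krt77 at 16555, 15969, 12241 and 12729 CPM (-0.39 ± 0.07, 0.00548, edgeR). Krt78 (-0.36 ± 0.07, adjusted p = 0.0120) and Krt2 (-0.74 ± 0.21, 0.0451, but 0.251 by DESeq2) were lower as well, and Krt79 was higher (1.09 ± 0.06, 4.09e-05, edgeR). The mice did not overlap for any of these 8, and Krt15 overlapped. Krt14 was found in 26.0% to 30.7% of thinned spinous cells and in 14.7% to 24.3% of T cells, and Krt5 in 42.9% to 48.7% against 20.1% to 32.4%. By level Krt14 in spinous cells overlapped the T cells, which held 654, 741.5, 286 and 941 CPM, and Krt5 in T cells was at 1043, 1463, 349 and 1029 CPM.

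The steps show where in the spinous range the keratins parted. Most of the Krt5 and Krt14 counts lay at spinous 1, where Krt5 stood at 5564, 5562, 6799 and 5888 CPM, and this step held 760 of 3190, 928 of 3756, 793 of 2811 and 658 of 2163 spinous cells. Within the steps the log2 ratio of Krt5 was 0.19, 0.49 and 0.10, overlapping at spinous 3, and that of Krt14 was 0.30, 0.44 and 0.41. At spinous 1, Krt1 was lower in the CerS4epi-/- mice (4344, 4075, 3859 and 3140 CPM). At spinous 2 it was higher (6658, 6919, 8607 and 7575 CPM), and at spinous 3 it was higher still relative to the controls (4046, 4428, 7250 and 6523 CPM). The mice did not overlap at any of the 3 steps. Krt10 and Krt77 were lower in both CerS4epi-/- mice at all 3 steps, but the gap narrowed from spinous 1 (Krt77 at 4119, 3130, 2355 and 2001 CPM) to spinous 3 (25424, 25016, 22768 and 23941 CPM). With at most 10% mitochondrial counts, 4 keratins passed in spinous cells (Krt5, Krt14, Krt1 and Krt79), and Krt10 (-0.23, adjusted p = 0.0875), Krt77 (-0.24, 0.0633), Krt78 (-0.21, 0.108) and Krt2 (-0.88, 0.0712) did not by edgeR. Not all calls in spinous cells held when a mouse was left out. The log2 fold changes then ran from -0.90 to -0.55 for Krt2, 0.25 to 0.49 for Krt1, -0.37 to -0.28 for Krt10 and -0.45 to -0.28 for Krt78. The genes of the dissociation response moved with the genotype in spinous cells: 4 of 6 were higher in both CerS4epi-/- mice. Their summed level was 7207 and 5831 CPM in the control and 9500 and 9730 CPM in the CerS4epi-/- mice. Upper follicle markers summed to 624, 632, 843 and 833 CPM there (9 of 12 higher and 2 lower in both CerS4epi-/- mice). Bulge markers summed to 269, 223, 304 and 319 CPM (7 of 10 higher and 2 lower). Over the 9 steps, Krt79 was highest at spinous 2 in 4 of 4 mice, at 268 to 489 CPM. Within spinous cells Krt79 was opposed to Krt1, at -0.42 to -0.31 by Spearman correlation. The part of these genes, and of any follicle cells in the group, in the keratin differences was not tested.

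In granular marker cells 3 of 10 keratins passed, all higher, against 11% of all genes tested (6.88% higher and 4.13% lower). Krt1 was at 430, 505, 598 and 671 CPM (log2 fold change 0.51 ± 0.09, adjusted p = 0.0106, edgeR). The step granular 1 held most of this difference, at 858, 969.9, 1526 and 1699 CPM. Of the granular 1 cells with Krt10, 19.9% and 22.1% in the control and 38.8% and 40.4% in the CerS4epi-/- mice also held Krt1 with Krt77, at 2 or more thinned counts each. Krt14 (0.67 ± 0.10, adjusted p = 0.00655) and Krt79 (1.32 ± 0.16, 0.00237) also passed in edgeR. They were found in 9.76% to 11.7% and 1.87% to 4.21% of thinned granular cells (median depth 9965 to 12183 counts). These shares were below those of T cells, whose median depth was only 1549 to 1905 counts. Cells of such unlike depth do not set a limit on background, so it was not told apart from expression here. Krt10 (-0.13 ± 0.07) and Krt77 (0.05 ± 0.07) did not pass, but their ratio moved: Krt10 to Krt77 was 1.23 and 1.24 in the control and 1.07 and 1.11 in the CerS4epi-/- mice. The genes of the dissociation response summed to 4383, 3036, 5884 and 5625 CPM in granular cells (4 of 6 higher in both CerS4epi-/- mice), and their part was not tested. With the replicate block, 5 keratins passed in granular cells, Krt5 (adjusted p = 0.0145) and Krt78 (0.0427) besides the 3 named.

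**Figure D4:**
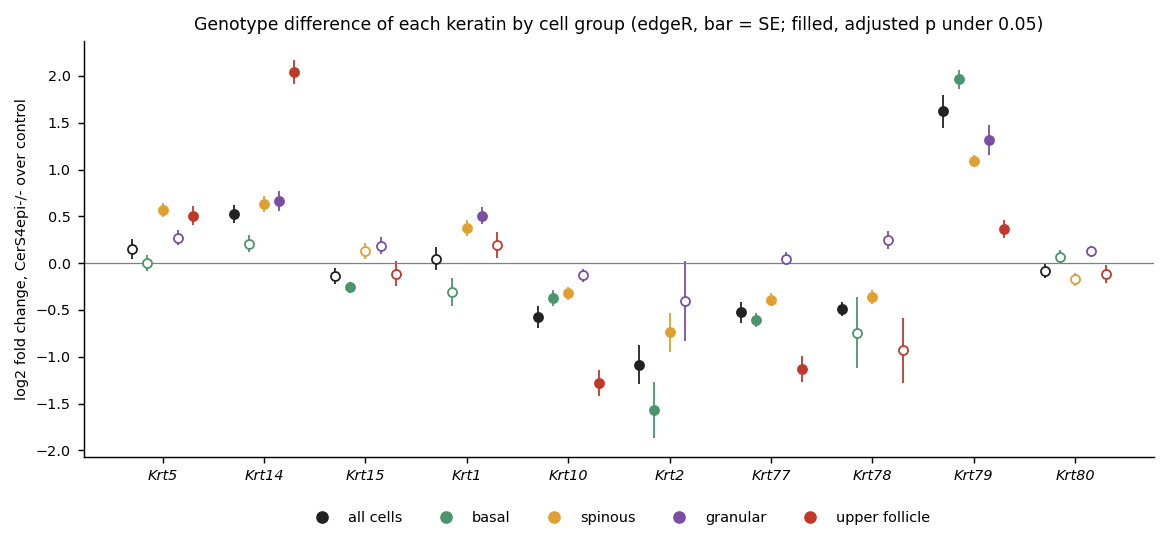
Log2 fold change (CerS4epi-/- over control) of each keratin in all cells and in the 4 marker groups, with the SE as bars; filled points passed the threshold of edgeR. Krt14 stands at 2.04 in upper follicle cells, Krt10 and Krt77 are lowest there, and Krt1 is on opposite sides of 0 in basal and in spinous and granular cells.

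The upper follicle marker cells showed the widest keratin differences. Krt14 stood at 745 and 612 CPM in the control and at 2442 and 3007 CPM in the CerS4epi-/- mice (log2 fold change 2.04 ± 0.13, adjusted p = 2.25e-06, edgeR), and the mice were far from overlapping. Its type II partner Krt5 was higher by less, at 839, 800.4, 1048 and 1211 CPM (0.50 ± 0.10, adjusted p = 0.00459). T cells held Krt5 at 1043, 1463, 349 and 1029 CPM and Krt14 at 654, 741.5, 286 and 941 CPM. Krt5 and the control values of Krt14 were thus within the range of the T cells. The ratio of Krt14 to Krt5 counts was 0.887 and 0.765 in the control and 2.33 and 2.48 in the CerS4epi-/- mice. In the basal, spinous and granular groups the ratio was between 0.418 and 0.741. It was also higher in both CerS4epi-/- mice in basal cells and in granular cells (0.490 and 0.539 against 0.607 and 0.741), and overlapped in spinous cells. A higher ratio was thus not particular to the upper follicle cells, where the difference was largest. Only sebaceous marker cells, 12, 2, 26 and 34 in number, had a higher one among the groups of keratinocytes, between 18.9 and 44.0, with Krt14 at 2327, 1857, 2929 and 2906 CPM and Krt5 at 70.9, 42.2, 155 and 79.4 CPM. The summed level of the 8 sebaceous genes in upper follicle cells was 88.9 and 86.9 CPM in the control and 167 and 183 CPM in the CerS4epi-/- mice. Of the 8, 5 were higher and 2 lower in both CerS4epi-/- mice. Their part in the difference of Krt14 was not tested. Krt10 was lower, at 6622, 7710, 3286 and 2437 CPM (-1.28 ± 0.14, 7.84e-05, edgeR), against 2517, 5094, 2174 and 2432 CPM in T cells, and so was Krt77, at 4556, 5175, 2501 and 1818 CPM (-1.13 ± 0.14, adjusted p = 0.000170). Krt79, the keratin known from this part of the follicle, was at 3410, 3474, 4361 and 4226 CPM (0.36 ± 0.09, 0.0198, edgeR). This call held in 1 of 4 fits that left out a mouse (adjusted p up to 0.125) and was lost with the replicate block (0.0733, edgeR). In all, 5 of 9 keratins tested passed, 3 higher and 2 lower, against 17.4% of all genes tested (8.61% higher and 8.76% lower). Krt2 was too low to be tested.

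**Figure D5:**
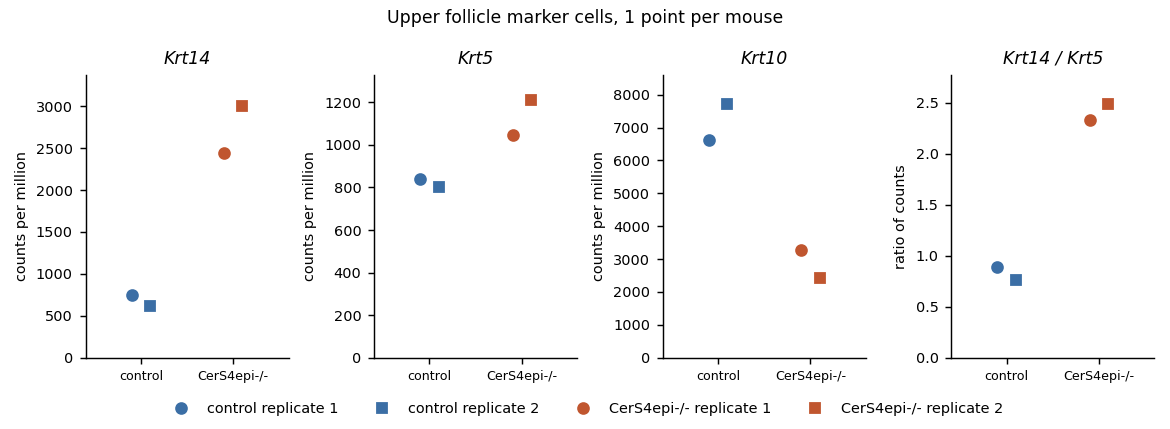
Levels of Krt14, Krt5 and Krt10 in upper follicle marker cells (CPM, axes from 0) and the ratio of Krt14 to Krt5 counts, 1 point per mouse. Krt14 and the ratio sit higher, and Krt10 lower, in both CerS4epi-/- mice.

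The shares of cells moved the same way as the levels. After thinning, Krt14 was found in 30.5%, 32.1%, 55.5% and 59.2% of the upper follicle cells and in 14.7% to 24.3% of T cells. Krt79 and Krt14 were found together in 25.9%, 28.6%, 49.6% and 51.2% of them. Krt10 with Krt77 and no Krt1 was found in 50.2%, 56.7%, 29.4% and 27.0%. The upper follicle markers that placed this group differed too, at 33133, 32641, 47156 and 56983 CPM within it. Of the 12, 10 were higher and 2 lower in both CerS4epi-/- mice. The placing of cells in this group is thus not independent of genotype, and the same cells were not necessarily compared. The cells were not alike between the genotypes in the other markers either. The median spinous marker score was 222 and 262 per 10000 counts in the control and 145 and 138 in the CerS4epi-/- mice, and the median granular score 15.5 and 20.7 against 5.25 and 6.34. Bulge markers summed to 1704 and 1572 CPM in the control and 1310 and 1201 CPM in the CerS4epi-/- mice. Of the 10, 3 were higher and 5 lower in both CerS4epi-/- mice. In basal cells the bulge markers summed to 262 to 627 CPM, and no bulge group was set apart. The part of these marker differences in the keratin differences was not tested. With the limits 1.5 times as high, the log2 fold change of Krt14 was 2.14, and that of Krt10 -1.52.

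The genotype difference itself differed between the groups for several keratins, tested as an interaction of genotype and cell group with the mouse as a term. Against basal cells, 7 keratins passed in spinous cells (4.72% of all genes tested), 5 in granular cells (5.88%) and 6 in upper follicle cells (8.56%), by edgeR. Fewer passed in granular cells without control replicate 1. Krt1 moved by 0.67 ± 0.09 on the log2 scale more in spinous than in basal cells (adjusted p = 0.000882) and by 0.84 ± 0.13 more in granular cells (0.000527). The difference of Krt14 was 1.85 ± 0.13 larger in upper follicle than in basal cells (adjusted p = 1.70e-08). Krt10 fell by 0.92 ± 0.10 more in upper follicle than in basal cells (3.00e-06, edgeR). In basal cells the shares with Krt10 overlapped those of T cells, and Krt1 (253, 351, 261 and 210 CPM) lay below the T cells (450, 535, 481 and 952 CPM). Within the basal group Krt10 rose from 236 to 357 CPM at basal 1 to 1395 to 1740 CPM at basal 3 over the mice. Krt1 rose from 74.4 to 92.5 CPM to 501 to 759 CPM. For these genes the comparison is thus with low levels, in which background was not told apart from expression.

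Other keratins, the proteins that join keratin filaments and the regulators of keratin genes were read in the same fits. Of 27 other keratins listed, 16 were tested over all cells, with 6 higher and 1 lower and a median log2 fold change of 1.29, against 0.00 over all genes, of which 14.3% passed. The stress and companion layer keratins Krt6b (0.224, 1.46, 9.30 and 16.5 CPM, 3.89 ± 0.59, adjusted p = 0.0117) and Krt6a (97.0, 53.9, 329 and 745.7 CPM, 2.83 ± 0.42, 0.0112) were higher. They are near-identical genes, and 40.2% of the Krt6b and 12.9% of the Krt6a counts lay in entries that were not whole, so their levels are uncertain. Krt7 (2.07 ± 0.18) and Krt16 (1.86 ± 0.25), the latter a type I keratin of stressed epidermis, were higher as well. Of the 22 filament partners, 9 of 19 tested were higher and 0 lower in granular cells, with a median of 0.30 on the log2 scale, where 11% of all genes passed. Among them were Flg (581, 634, 1313 and 1321 CPM, 1.19 ± 0.07), filaggrin, which bundles keratin filaments, and Hrnr (0.71 ± 0.08), hornerin, besides Rptn (3.71 ± 0.62) at under 6 CPM and Fam83g (0.58 ± 0.11). Of the list, Flg, Flg2, Hrnr and Rptn are granular markers, Krtdap is a spinous marker and Dst a basal marker that placed the cells. Their values in those groups, and the counts that include them, are not independent of the placing. In spinous cells 4 were higher and 3 lower of 20 tested, with a median of -0.02, where 11.3% of all genes passed. In upper follicle cells 3 were higher and 5 lower of 20 tested (median -0.13), where 17.4% of all genes passed. In basal cells 1 was higher and 1 lower of 19 tested (median -0.05), where 9.13% passed. Over all cells 4 were higher and 1 lower of 21 tested (median -0.02), where 14.3% passed.

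Of 29 regulators listed, 28 were tested in each group. In spinous cells 10 were higher and 3 lower, with a median log2 fold change of 0.17 against 0.00 over all genes, of which 11.3% passed. Ovol1, a transcription factor of differentiating epidermis, was higher (233, 186, 399 and 426 CPM, 0.97 ± 0.10), and so were Hes1, a Notch target (0.79 ± 0.19), Fos (0.67 ± 0.10) and Jun (0.66 ± 0.08). Fos and Jun are also genes of the dissociation response. In basal cells, where 9.13% of all genes passed, 9 were higher and 4 lower, Notch3 (1.02 ± 0.13), Ovol1 (0.83 ± 0.10) and Zfp750 (0.63 ± 0.15) among the former and Maf (-0.67 ± 0.10) among the latter. Trp63, whose product p63 is known to activate Krt5 and Krt14, was lower in basal cells, at 489, 499, 378 and 361 CPM (-0.37 ± 0.07, adjusted p = 0.0123, edgeR). Trp63 is outside the 4 largest and was named after its value was seen. It is also one of the basal markers that placed these cells, so its level there is not independent of the placing. In upper follicle cells 4 regulators were higher and 5 lower, where 17.4% of all genes passed. The lists do not give independent evidence, since they were chosen with earlier results of these data known.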

How the data were processed

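Per the labels and the study's methods, the authors trimmed reads (fastp 0.23.2) and mapped and counted them with STARsolo (STAR 2.7.10a) on GRCm39 with Gencode vM29. Multi-gene reads were split by expectation maximization. The deposited values are these estimated counts of UMIs per gene and possible barcode, neither normalized nor filtered for cells. Fractional values made up 4.55% to 4.81% of all entries.

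A barcode was kept as a cell from 1200 counts upwards if no more than 20% were mitochondrial. The total per mouse was 39231945 to 53106317 counts. Cells were placed by summed marker counts per 10000 (limits of 16 for T cell and basal markers, 32 for sebaceous and 64 for Langerhans, upper follicle, granular and spinous markers, set after the scores were seen). For shares and correlations each cell was thinned to 1200 counts, which left out 14 to 21 cells per mouse. Counts were summed per mouse and group, rounded, scaled by TMM factors and filtered with filterByExpr. They were tested with the quasi-likelihood test of edgeR 4.0.16 (R 4.3.3, limma 3.58.1), checked on simulated data, with Benjamini-Hochberg adjustment over all genes tested. The labels do not say more of how the 2 mice of a genotype are related, and p-values measure the spread between these samples. DESeq2 1.42.0, its size factors, library totals, no filter, a replicate block, each mouse left out, other cell filters (2000 counts, 10% mitochondrial counts), other limits and totals without the members were alternatives. The same mix of steps was added after seeing the data. All 10 members are named, the 3 most alike genes that are not keratins among genes with at least 100 counts, and up to 4 genes per list past the threshold by absolute change. The members and lists were chosen with earlier results of these data known. No set test was run, and no protein sequences were used here. Promoters are printed for 4 members, and that of 1 other is not reported here.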

Additional observations from a re-analysis of the deposited data

Results flagged for a closer look

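The genotype difference of a keratin differed from that in basal cells in 18 cases by the interaction test of edgeR, with the mouse as a term. The values are differences of log2 fold changes, CerS4epi-/- over control, in the named group minus basal cells. In spinous cells they were 0.56 for Krt5, 0.42 for Krt14, 0.38 for Krt15, 0.67 for Krt1, 0.21 for Krt77, -0.87 for Krt79 and -0.25 for Krt80. In granular cells they were 0.48 for Krt14, 0.47 for Krt15, 0.84 for Krt1, 0.68 for Krt77 and -0.63 for Krt79. In upper follicle cells they were 0.51 for Krt5, 1.85 for Krt14, 0.49 for Krt1, -0.92 for Krt10, -0.53 for Krt77 and -1.59 for Krt79. Krt1, Krt15 and Krt77 changed sign between basal and granular cells, from -0.31, -0.26 and -0.61 to 0.51, 0.19 and 0.05, of which Krt1 in granular cells and Krt15 and Krt77 in basal cells were called. In basal cells the shares with Krt10, Krt77 and Krt79 overlapped those of T cells, and Krt1 lay below the level in T cells. The differences of Krt1, Krt10, Krt77 and Krt79 are therefore set against low levels, in which background was not told apart from expression. Krt5, Krt14 and Krt15 were not low in basal cells. In granular cells, however, Krt14 and Krt15 lay below the T cells in each mouse. Krt15 was at 391.9, 401.8, 388.2 and 474.9 CPM there, against 1325.9, 2404.8, 588.3 and 1240.3 CPM in T cells. Background was not told apart from expression for these 2 genes in granular cells.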

How the results depend on the processing

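Of 27 keratin differences called in the 5 cell groups, none turned its direction under any alternative run; 321 of 372 alternative values kept direction and call, 46 lost the call and 5 moved under the same mix of steps. With at most 10% mitochondrial counts per cell, 3 keratins were called over all cells, 3 in basal and 4 in spinous cells. Without a filter on low counts 5 were called in granular cells. The shares of all genes called in these alternative fits are not given here. The mice share only a number: deviations of same-numbered mice correlated between -0.03 and 0.11. With the replicate block, 5 keratins were called in granular cells, and Krt10 (adjusted p = 0.138, edgeR) and Krt77 (0.126) were not called over all cells, nor Krt10 in spinous (0.0611) and Krt79 in upper follicle cells (0.0733), while Krt78 was called in upper follicle cells (0.0201). Leaving out each mouse in turn, 3 to 6 were called over all cells, 2 to 4 in basal, 5 to 8 in spinous, 3 to 4 in granular and 4 to 5 in upper follicle cells, and 6 to 8, 2 to 6 and 5 to 7 differed from basal cells in spinous, granular and upper follicle cells. Over all cells the count was 3 without either CerS4epi-/- mouse, in basal cells it was 2 without either CerS4epi-/- mouse and 3 without control replicate 2, and in spinous cells 5 without CerS4epi-/- replicate 1. Without control replicate 1, 2 keratins differed between granular and basal cells. The causes were not tested.

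Values that changed sign were not called in either fit. With at most 10% mitochondrial counts they were Krt5 (-0.043 over all cells, -0.012 in basal cells) and Krt80 (0.13 over all cells, 0.16 in upper follicle cells). With library totals and no TMM factors they were Krt5 in basal (-0.047) and Krt77 in granular cells (-0.022), with the replicate block Krt5 in basal cells (-0.0013), and with limits 1.5 times as high Krt15 in granular (-0.021) and Krt1 in upper follicle cells (-0.043). Leaving out a mouse gave ranges of -0.12 to 0.20 for Krt1 over all cells, -0.12 to 0.12 for Krt5 in basal, -0.014 to 0.12 for Krt77 and -0.79 to 0.25 for Krt2 in granular and -0.31 to 0.13 for Krt15 in upper follicle cells.

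As means over the mice, the thinned shares of 95.3% (Krt5 and Krt14, basal), 80.8% (Krt10, Krt1 and Krt77, spinous), 61.0% (Krt10 and Krt77 without Krt1, granular) and 38.8% (Krt79 and Krt14, upper follicle) became 90.1%, 70.4%, 64.5% and 22.4% at 2 or more counts. In cells as deposited they became 97.4%, 88.7%, 45.7% and 51.4%. The log2 change of the Krt14 to Krt5 ratio was 1.54 in upper follicle, 0.20 in basal, 0.06 in spinous and 0.39 in granular cells, and 0.38 over all cells. With 2 mice per genotype, changes near the threshold are the least certain, and depth limits Krt2, Krt78 in basal cells and all shares.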
